A study of Rattus norvegicus with 12 samples.

Results

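The neuronal calcium sensor genes Hpca, Hpcal1, Hpcal4, Ncald, Vsnl1 and Ncs1 were followed in the CA1 field of the rat hippocampus after a spatial learning session and after a control session. They were selected by gene symbol: every probe set of the array whose single annotated symbol is 1 of these 6 was taken, which gave 10 of the 15923 probe sets (6 of 10412 single-symbol genes). Hpcal1, Hpcal4, Vsnl1 and Ncs1 each had 2 probe sets, and Hpca and Ncald had 1 each. The selection rule has no threshold on a measured value, but the family was proposed with results of these arrays known, so every difference below is a description and not independent evidence.

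CA1 RNA came from 12 male Long-Evans rats of 3 to 4 months, all trained earlier in a standard water maze. After 2 to 3 weeks each rat was given 8 trials with 8 minutes between them in a maze at another site. The 6 spatial learning rats (learning rats below) had orienting cues and a visible platform that kept its place, and the 6 control task rats (control rats below) had a visible platform that moved between trials and no informative cues. A 90 second probe trial without the platform came 1 hour later, and the hippocampi were collected directly after it. Each rat gave 1 Affymetrix RAE230A array, a 1-colour array whose signal is summarised per probe set, a group of short probes for 1 transcript. The comparison addresses which CA1 transcripts differ when a place could be learned in that session. A difference is the learning mean minus the control mean, in log2 units. In 3 arrays transcripts of neighbouring tissue stood out most: the mean of the choroid plexus markers was 9.49 in control replicate 3 against at most 7.39 elsewhere, and that of the meningeal markers was 7.95 in control replicate 6 and 7.70 in learning replicate 6 against at most 6.84 elsewhere.

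Neuronal calcium sensors are small EF-hand proteins that bind calcium at levels reached during neuronal signalling. Most carry an N-terminal myristoyl group, and in several members calcium binding exposes it, so that the protein moves to membranes and acts on channels, receptors, kinases or the endocytic machinery. Hippocalcin, the product of Hpca, is known for its abundance in hippocampal pyramidal cells, where it has been tied to the slow afterhyperpolarisation and to long-term depression.

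Of the 6 genes, Ncald and Hpcal1 stood lower after spatial learning, Hpca stood slightly higher, both Hpcal4 sets had a lower mean after spatial learning with 95% intervals that include 0, and Vsnl1 and Ncs1 gave different answers from their 2 probe sets. None passed the test: 0 of the 10 probe sets were called by limma at an adjusted p of 0.05, beside a share of 0% over all 9610 tested probe sets. An exact permutation test called 0 as well, but that adds no support. Its smallest possible p, 0.00216, passes adjustment over 9610 probe sets only if very many of them reach it. At an unadjusted p under 0.05 there were 5 of the 10, against 10.9% of all tested probe sets. Of these 5, 4 were lower, against 4.55% of all, and 1 was higher, against 6.36%. Because the family was proposed with these results known, nothing is read from those shares. Of the 10 probe sets 3 lay above 0, against 53.7% of all tested, and 7 below, against 46.3%. Taking the brightest probe set of each gene gave 3 genes on either side of 0 and a median of -0.06, where all tested probe sets had a median of 0.01.

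**Figure D1:**
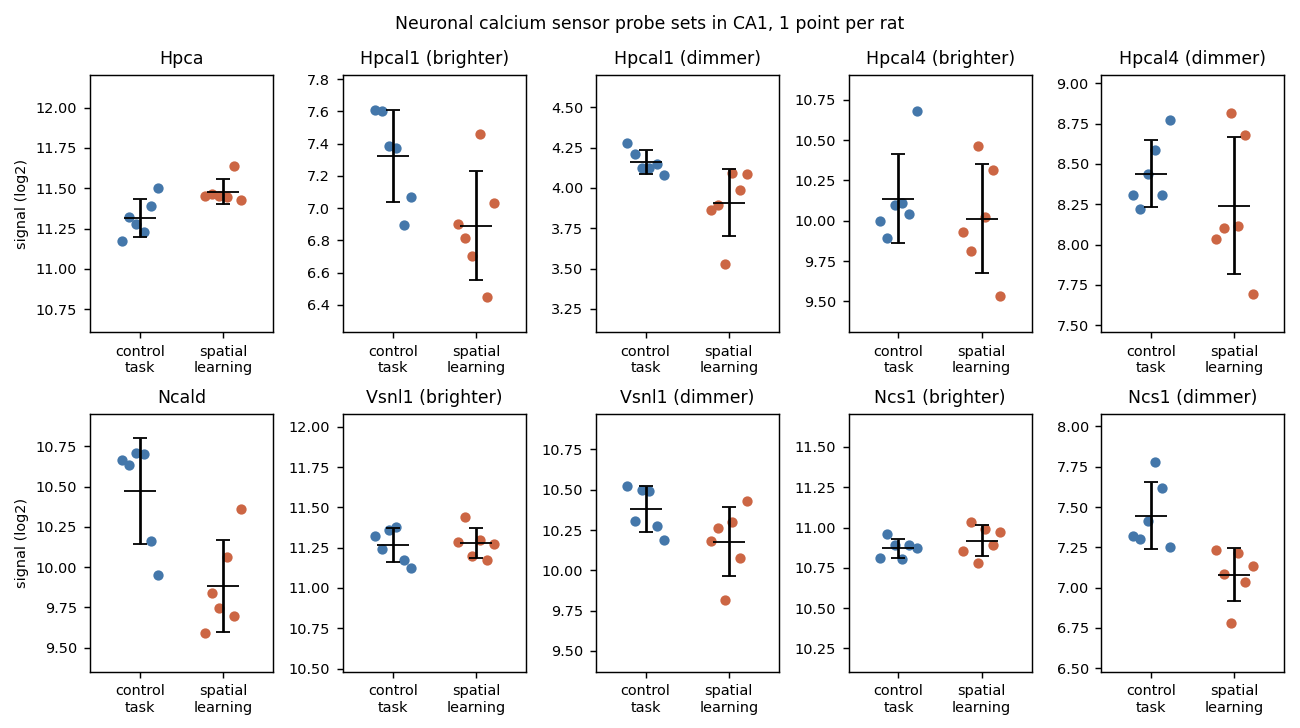
Log2 signal of the 10 neuronal calcium sensor probe sets in each rat (points, 6 control task and 6 spatial learning), with the group mean and SD (bars). Every panel spans 1.6 log2 units, so distances compare between panels. The groups are apart in the dimmer Ncs1 probe set and overlap in the other 9.

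The promoters of Vsnl1 and Ncs1 are shown because both genes had probe sets that disagreed. They were also the members whose 250 bases before the transcript start, in the RefSeq table on GRCr8, lay wholly outside the annotated gene. The table matched 5 of the 6 members, all but Ncald. Both strands were searched for TGACG, the core of the cAMP response element bound by CREB, for TGANTCA, bound by AP-1, and for GCGNGGGCG, bound by Egr proteins. Capitals mark a match.
Vsnl1, chr6:39878557-39878806, minus strand: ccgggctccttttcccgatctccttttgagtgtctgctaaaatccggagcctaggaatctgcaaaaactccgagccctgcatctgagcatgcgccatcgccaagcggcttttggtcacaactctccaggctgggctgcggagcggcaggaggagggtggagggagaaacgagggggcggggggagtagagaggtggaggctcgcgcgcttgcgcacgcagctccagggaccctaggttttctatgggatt
Ncs1, chr3:34920699-34920948, plus strand: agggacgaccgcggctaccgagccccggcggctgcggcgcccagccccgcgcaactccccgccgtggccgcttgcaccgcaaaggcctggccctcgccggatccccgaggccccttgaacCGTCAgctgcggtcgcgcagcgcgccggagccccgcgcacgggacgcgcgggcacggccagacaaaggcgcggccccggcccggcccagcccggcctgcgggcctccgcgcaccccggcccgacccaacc
The Ncs1 window holds TGACG on its opposite strand, beginning 130 bases before the start, and the Vsnl1 window holds none of the 3. TGACG occurs in 18.2% of the 33469 windows of that length, TGANTCA in 6.34% and GCGNGGGCG in 4.29%. A match describes letters and is no evidence of binding.

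Hpca, hippocalcin, had little spread within the groups. Its signal ran from 11.17 to 11.50 with a median of 11.30 in control rats and from 11.42 to 11.64 with a median of 11.45 in learning rats. Of the 6 control rats, 5 lay below the lowest learning rat, and control replicate 6 lay among the upper values of the other group. The means were 11.32 ± 0.12 and 11.48 ± 0.08 (SD, n = 6 each). The difference of 0.16 (SE 0.06, 95% interval 0.04 to 0.28) is a 1.12-fold level, with a limma adjusted p of 0.420.

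Ncald encodes neurocalcin delta, a close relative of hippocalcin that interacts with the cytoskeleton and with clathrin-coated vesicles. In control rats its signal ran from 9.95 to 10.71 with a median of 10.65, and in learning rats from 9.59 to 10.36 with a median of 9.79. Control replicates 1 to 4 formed a tight upper set between 10.63 and 10.71, above every learning rat, while control replicates 5 and 6, at 10.16 and 9.95, lay within the range of the other group. Learning replicate 6 was the highest of its group. The means were 10.47 ± 0.33 and 9.88 ± 0.28 (SD, n = 6 each), and the difference of -0.59 (SE 0.16, 95% interval -0.93 to -0.25), a 0.665-fold level, was the widest of the 10 probe sets. Its limma adjusted p was 0.348.

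Hpcal1 encodes VILIP-3, a visinin-like protein best known from cerebellar Purkinje cells. Its brighter probe set ran from 6.90 to 7.61 with a median of 7.38 in control rats and from 6.45 to 7.46 with a median of 6.86 in learning rats. Here 3 learning rats lay below the lowest control, and learning replicate 4, at 7.46, lay above 4 of the 6 controls. The difference was -0.43 (SE 0.16, 95% interval -0.78 to -0.08), with a limma adjusted p of 0.429.

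The dimmer Hpcal1 probe set also stood lower, by a smaller step. It ran from 4.08 to 4.28 in control rats and from 3.53 to 4.09 in learning rats, with medians of 4.14 and 3.94. Of the learning rats 4 lay below the lowest control, and replicate 3 was the farthest, at 3.53. The difference was -0.25 (SE 0.08, limma adjusted p = 0.409). Its mean over all arrays, 4.04, was just above the minimum of 4 set for testing, and its mean in learning rats, 3.91, was below it. It therefore passed the filter through the group where it was higher. Leaving it out of the count gave 4 of 9 probe sets at an unadjusted p under 0.05.

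Hpcal4 encodes VILIP-2, a visinin-like protein of brain that modulates voltage-gated calcium channels. Its brighter probe set ran from 9.90 to 10.68 with a median of 10.07 in control rats and from 9.53 to 10.47 with a median of 9.98 in learning rats. The dimmer set ran from 8.22 to 8.78 and from 7.69 to 8.82, with medians of 8.37 and 8.11. In both sets control replicate 6 and learning replicates 3 and 5 were the 3 highest arrays and learning replicate 6 was the lowest. In the brighter set 2 learning rats lay below the lowest control and 1 control above the highest learning rat. In the dimmer set 4 learning rats lay below the lowest control and 0 controls above the highest learning rat. The differences were -0.12 (SE 0.16, 95% interval -0.46 to 0.22, limma adjusted p = 0.812) and -0.20 (SE 0.17, 95% interval -0.57 to 0.17, limma adjusted p = 0.705).

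The pooled within-group SD was 0.31 for the brighter and 0.34 for the dimmer Hpcal4 set, beside a median of 0.12 over all tested probe sets. It was 0.31 for Ncald and for the brighter Hpcal1 set, and 0.10 for Hpca.

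Vsnl1 encodes VILIP-1, an abundant neuronal protein that is measured in cerebrospinal fluid as a marker of neuronal injury. Its brighter probe set ran from 11.12 to 11.38 in control rats and from 11.17 to 11.44 in learning rats, with a median of 11.28 in both. The difference was 0.01 (SE 0.05), and its 95% interval of -0.11 to 0.13 bounds the fold level between 0.930 and 1.09 (limma adjusted p = 0.953). The dimmer set ran from 10.19 to 10.52 with a median of 10.40 and from 9.82 to 10.43 with a median of 10.22. There 3 controls lay above every learning rat and 3 learning rats lay below every control. That difference was -0.20 (SE 0.09, limma adjusted p = 0.458), and -0.13 without learning replicate 3.

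Ncs1 encodes neuronal calcium sensor 1, the mammalian frequenin, which acts on phosphatidylinositol 4-kinase, potassium and calcium channels and dopamine receptors. Its brighter probe set was the steadiest of the 10, from 10.80 to 10.96 in control rats and from 10.78 to 11.03 in learning rats, with medians of 10.88 and 10.93. The difference was 0.05 (SE 0.05, 95% interval -0.05 to 0.15, limma adjusted p = 0.742). The dimmer set ran from 7.25 to 7.78 with a median of 7.36 in control rats and from 6.78 to 7.23 with a median of 7.11 in learning rats. Every learning rat lay below every control there, which 0.271% of all tested probe sets also showed in that direction. The means were 7.45 ± 0.21 and 7.08 ± 0.17 (SD, n = 6 each), and the difference was -0.37 (SE 0.10, limma adjusted p = 0.376).

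Without the 3 arrays that had the highest choroid plexus or meningeal marker means the widest difference was again that of Ncald, at -0.75 (limma adjusted p = 0.0879). Hpca then stood at 0.21, the brighter and dimmer Hpcal1 sets at -0.51 and -0.32, the dimmer Vsnl1 set at -0.27 and the dimmer Ncs1 set at -0.43, with limma adjusted p from 0.199 to 0.392. The brighter Hpcal4 set stood at 0.098, on the other side of 0. Choroid plexus markers still stood apart among the arrays kept: control replicates 1 and 2, with means of 6.58 and 7.03, lay above every learning array, the highest of which was at 6.05.

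**Figure D2:**
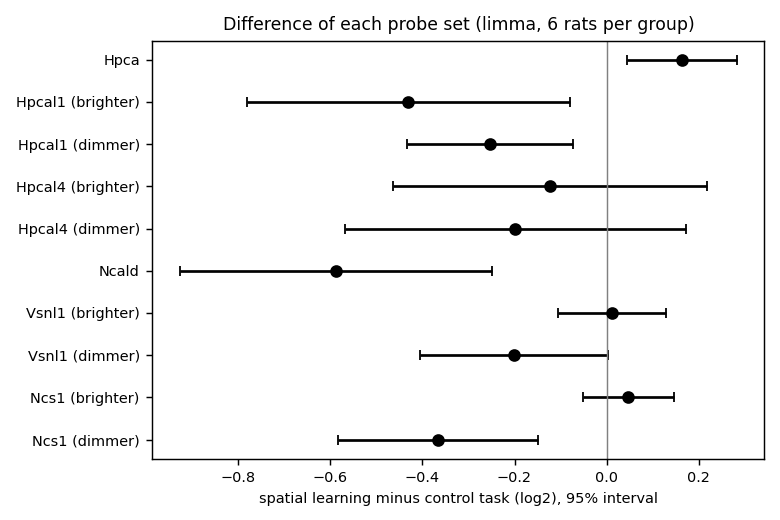
Difference of each probe set between spatial learning and control task (log2, horizontal axis; points are limma estimates, bars 95% intervals, 6 rats per group). Intervals of Hpca, Ncald, both Hpcal1 sets and the dimmer Ncs1 set exclude 0, and none of the 10 passed after adjustment over all tested probe sets.

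The probe sets of a gene did not always tell the same story. For Ncs1 the dimmer set minus the brighter set was -3.42 ± 0.24 in control rats and -3.84 ± 0.13 in learning rats (log2, SD, n = 6 each). That is a shift of -0.41 between the groups (exact permutation p = 0.00649, 2-sided, unadjusted, 1 of 4 such gaps). For Vsnl1 the same gap was -0.89 ± 0.05 and -1.10 ± 0.18, a shift of -0.21 (exact permutation p = 0.0152, unadjusted). In both genes 5 of the 6 learning rats had a gap below the lowest control. The Hpcal4 gap shifted by -0.08 (exact permutation p = 0.327). The Hpcal1 gap is not given, since the dimmer set lay at the level filter.

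Agreement over rats was measured as well. With group means removed, the 2 Hpcal4 sets followed each other over the 12 arrays with Pearson r = 0.93 and Spearman rho = 0.91 (100000 permutations, p = 9.00e-05 and 0.00012, adjusted over 19 relations 0.00171 and 0.00228), and r was 0.93 without the 2 arrays farthest from the median. The Vsnl1 sets gave r = 0.70 and rho = 0.67 (permutation p = 0.0112 and 0.0202, adjusted 0.0413 and 0.0641; r = 0.70 without 2 arrays). The Hpcal1 sets, of which the dimmer lay at the level filter, gave r = 0.48 and rho = 0.55 (permutation p = 0.110 and 0.0723, adjusted 0.151 and 0.137; r = 0.54 without 2 arrays). The Ncs1 sets gave r = 0.14 and rho = 0.070 (permutation p = 0.670 and 0.835, both the same after adjustment; r = -0.26 without 2 arrays). No agreement of the Ncs1 sets over rats was detectable with 12 arrays. The permutations ran freely over the 12 arrays and did not allow for the removed group means. All permutation p of correlations are therefore somewhat too small, and the adjusted 0.0413 of the Vsnl1 sets lies near the threshold.

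**Figure D3:**
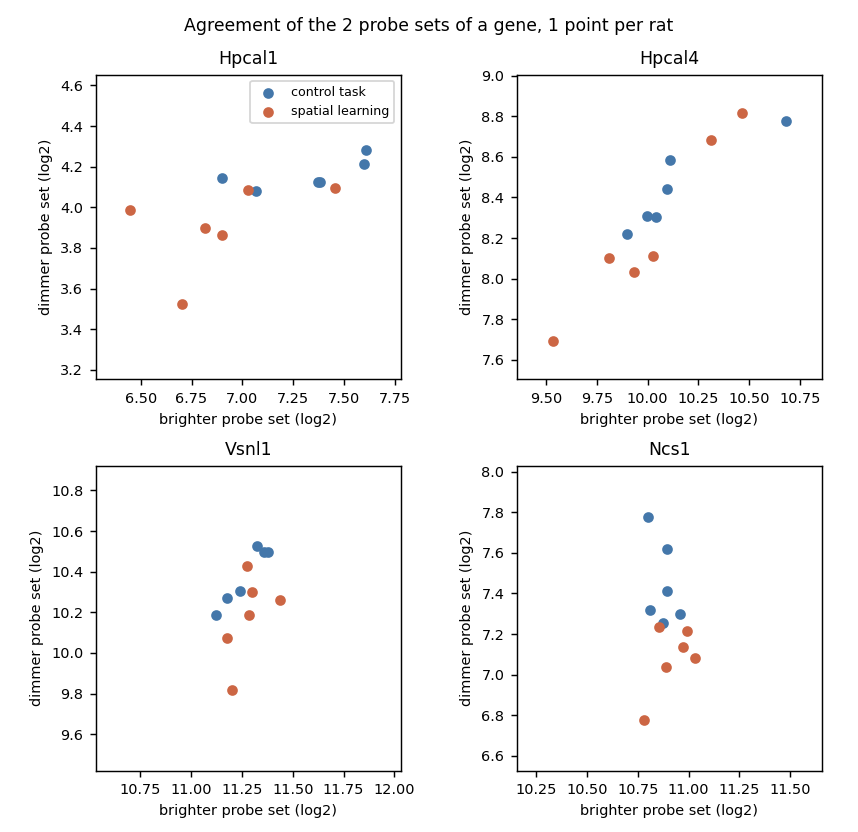
Brighter against dimmer probe set of the 4 genes with 2 sets (log2 signal, both axes 1.5 units long; 1 point per rat, blue control task, orange spatial learning). The Hpcal4 points lie along a line, 5 of the 6 spatial learning rats have a wider gap between the sets than every control in Vsnl1 and in Ncs1, and the Ncs1 points show no line.

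Among rats of the same group 5 of the 15 pairs of members had an adjusted Pearson p under 0.05. These 5 lay near the threshold, from 0.0402 to 0.0413. Their p are somewhat too small, since the permutations did not allow for the removed group means. Whether any would pass with that allowance was not tested. By the brightest set of each gene and with group means removed, Hpca ran against Ncald (r = -0.73, rho = -0.83, permutation p = 0.00635 and 0.00164, adjusted 0.0402 and 0.0156; r = -0.57 without 2 arrays). It also ran against Vsnl1 (r = -0.73, rho = -0.72, permutation p = 0.00603 and 0.0103, adjusted 0.0402 and 0.0445; r = -0.49 without 2 arrays) and Hpcal1 (r = -0.68, rho = -0.71, permutation p = 0.0146 and 0.0117, adjusted 0.0413 and 0.0445; r = -0.52 without 2 arrays). Ncald and Hpcal1 followed each other (r = 0.69, rho = 0.72, permutation p = 0.0134 and 0.0108, adjusted 0.0413 and 0.0445; r = 0.75 without 2 arrays). Hpcal4 and Ncald gave r = -0.68 but rho = -0.44 (permutation p = 0.0152 and 0.153, adjusted 0.0413 and 0.243; r = -0.51 without 2 arrays), a relation that rests partly on the arrays at the ends. Hpca and Hpcal4 gave r = 0.59 and rho = 0.34 (permutation p = 0.0413 and 0.287, adjusted 0.0883 and 0.389), and r was 0.040 without 2 arrays. Hpcal4 gave r = -0.57 with Vsnl1 and r = -0.48 with Hpcal1 (permutation p = 0.0508 and 0.111, adjusted 0.0964 and 0.151). The brighter Ncs1 set had r between -0.51 and 0.29 with the other 5 members, none with an adjusted p under 0.05. All these values come from the same 12 arrays, so the pairs share their RNA and their processing.

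**Figure D4:**
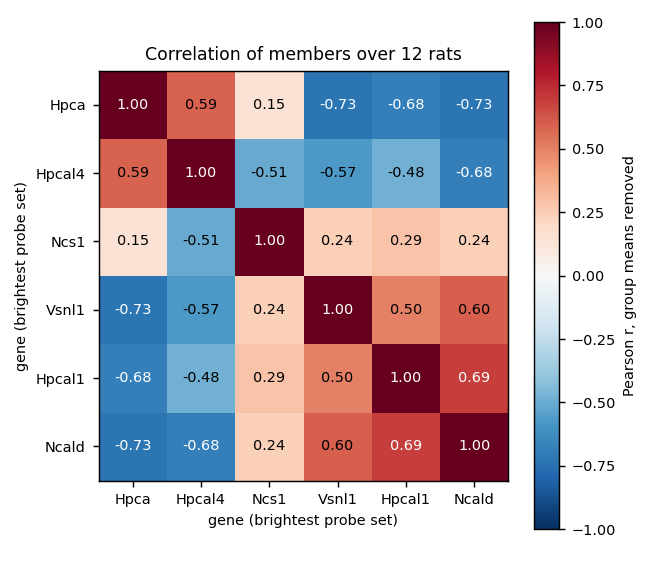
Pearson r between the brightest probe sets of the 6 genes over 12 rats, with group means removed (colour and printed value). Vsnl1, Hpcal1 and Ncald correlate positively with each other (0.50 to 0.69) and negatively with Hpca and Hpcal4, though Hpcal4 with Vsnl1 or Hpcal1, Hpcal1 with Vsnl1 and Ncald with Vsnl1 did not pass after adjustment.

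Marker genes of CA1 lay on 1 side of 0 as well, with 0 called. All 7 tested CA1 pyramidal markers, Wfs1, Fibcd1 and Itpka among them, were above the level filter on which testing rested. All 7 were higher after spatial learning, and their mean per array ran from 10.21 to 10.49 in control rats and from 10.27 to 10.63 in learning rats (exact permutation p = 0.0368, unadjusted). Among the 7 was Dcn, at 0.05, which was also on the list of meningeal markers. Of 6 dentate granule markers with a probe set 4 were tested, Prox1 among them. All 4 were lower, with a mean per array from 6.43 to 7.06 and from 6.35 to 6.72 (exact permutation p = 0.0974, unadjusted). Of 7 choroid plexus markers with a probe set 3 were tested, with a mean per array from 5.94 to 9.49 in control rats and from 5.70 to 6.05 in learning rats (exact permutation p = 0.0130, unadjusted). Of these 3, 2 were lower and 1 was higher. Ttr, the choroid plexus gene for transthyretin, stood at 7.56 ± 3.27 in control rats and 4.23 ± 0.29 in learning rats (SD, n = 6 each), without overlap (limma adjusted p = 0.423). Enpp2 differed by -0.41 with overlapping groups. Kcne2 stood higher, at 3.99 in control rats and 4.17 in learning rats, near the level filter. The CA3 and CA2 markers lay on both sides of 0, 3 higher and 4 lower. The means of 7 lists, of CA3, interneuron, glial, vessel and meningeal markers, gave exact permutation p from 0.0693 to 0.887. The part of these markers in the members' differences was not tested beyond the covariates below. In bulk tissue fewer cells of a type and less RNA per cell cannot be told apart.

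Within groups Ncald ran against the CA1 marker mean (r = -0.82, rho = -0.55, permutation p = 0.00077 and 0.0673, adjusted over 120 relations 0.0924 and 0.384; r = -0.59 without 2 arrays) and with the dentate mean (r = 0.71, rho = 0.78, permutation p = 0.0105 and 0.00419, adjusted 0.227 and 0.112; r = 0.73 without 2 arrays). The brighter Hpcal4 set ran with the CA1 mean (r = 0.81, rho = 0.87, permutation p = 0.00174 and 0.00048, adjusted 0.104 and 0.0516; r = 0.87 without 2 arrays). Hpca ran against the dentate mean (r = -0.62, rho = -0.84, permutation p = 0.0313 and 0.00129, adjusted 0.357 and 0.0516). The dimmer Vsnl1 set ran with it (r = 0.71, rho = 0.83, permutation p = 0.00967 and 0.0012, adjusted 0.227 and 0.0516). Without 2 arrays r was -0.86 for Hpca and 0.72 for the dimmer Vsnl1 set. Of the 120 relations 0 had an adjusted Pearson p under 0.05, and the lowest adjusted Spearman p was 0.0516. With the CA1 mean as a covariate, chosen after seeing the data, the Ncald difference was -0.18 (SE 0.13, limma adjusted p = 0.850), the Hpca difference 0.06 and that of the brighter Hpcal1 set -0.17. The differences of the 2 Hpcal4 sets were then -0.53 and -0.58 (limma adjusted p = 0.400 and 0.450), the dimmer Ncs1 set stood at -0.31 (limma adjusted p = 0.684) and the dimmer Vsnl1 set at -0.04. The groups shared CA1 means only through replicate 6 of each group, the arrays with the highest meningeal means. Comparisons at like CA1 mean therefore rest on those arrays. With the dentate mean instead, Ncald was at -0.35, Hpca at 0.10, the brighter Hpcal1 set at -0.23, the dimmer Ncs1 set at -0.30 and the dimmer Vsnl1 set at -0.06. With the CA1 mean 3 probe sets had an unadjusted p under 0.05, and with the dentate mean 2.

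**Figure D5:**
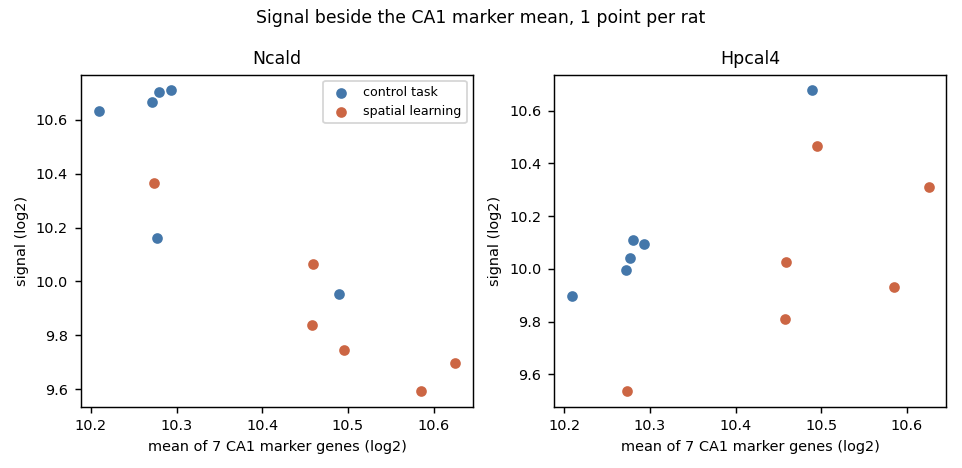
Signal of Ncald and of the brighter Hpcal4 probe set (vertical axes, log2) against the mean of 7 CA1 marker genes (horizontal axis, log2) in each rat (blue control task, orange spatial learning). Ncald is lower where the CA1 mean is higher; 5 controls lie between 10.21 and 10.29 on the horizontal axis and control replicate 6 at 10.49. Within groups Hpcal4 tends to be higher where the CA1 mean is higher, though learning replicate 1, at a CA1 mean of 10.59, has Hpcal4 at 9.93. The groups share CA1 levels only through control replicate 6 and learning replicate 6, the latter at 10.27. A comparison of Hpcal4 at like CA1 mean therefore rests on 1 array per group.

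Of 3 control genes with signals from both transcript ends, 1 gave a gap that differed between the groups. The gap between the 3' and 5' signals of the array's hexokinase control was 1.48 ± 0.08 in control rats and 1.65 ± 0.11 in learning rats (log2, SD, n = 6 each, exact permutation p = 0.00433, adjusted over 3 such gaps 0.0130). The beta-actin gap was 1.83 ± 0.09 and 1.93 ± 0.07 (exact permutation p = 0.0779, adjusted 0.117), and the Gapdh gap was 0.370 ± 0.06 and 0.369 ± 0.08 (exact permutation p = 0.998). With the hexokinase gap as a covariate the Ncald difference was -0.80, the dimmer Ncs1 set stood at -0.23 and the 2 Hpcal4 sets at 0.053 and 0.0066. The hexokinase gap ran from 1.35 to 1.553 in control rats and from 1.553 to 1.82 in learning rats. The groups met only at control replicate 6 and learning replicate 1, so comparisons at a like gap rest on those arrays. The SE of the Ncald difference rose from 0.16 to 0.21 in that fit. Within groups the dimmer Ncs1 set ran against the beta-actin gap (r = -0.75, rho = -0.76, permutation p = 0.00433 and 0.00561, adjusted over 120 relations 0.173 and 0.112; r = -0.69 without 2 arrays). The part of RNA integrity in the Ncs1 result was not tested further.

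Other neuronal calcium sensors on the array were the KChIP genes, whose proteins bind Kv4 potassium channels, and the retinal members. Rcvrn, Guca1a and Guca1b were below the level filter. The 4 KChIP genes tested had a median difference of 0.07, 3 of them above 0 and 1 below, and 0 were called. Kcnip2 alone had an unadjusted p under 0.05, against 10.9% of all tested probe sets. Kcnip2 stood at 9.64 ± 0.08 in control rats and 9.76 ± 0.05 in learning rats, a difference of 0.12 (SE 0.04, limma adjusted p = 0.429). Kcnip1 differed by 0.10, Kcnip3 by -0.07 and Kcnip4 by 0.05.

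Other EF-hand genes gave differences on both sides of 0. Of 24 listed, 17 had a probe set with a single symbol and 13 were tested, 6 higher and 7 lower with a median of -0.01, 0 called and 0 with an unadjusted p under 0.05 (10.9% of all tested probe sets). Calm2, a calmodulin gene, differed by 0.0040 (SE 0.05) and Calb1, the calcium buffer calbindin, by 0.07. The 4 with the smallest p were Cib1 at 0.22, S100a10 at 0.12, Sri, which encodes sorcin, at -0.11 and the astrocyte gene S100b at -0.04.

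Partners and modifying enzymes gave 6 higher and 10 lower among 16 tested of 29 listed, with a median of -0.04 and 0 called. Of the 16, 2 had an unadjusted p under 0.05, against 10.9% of all tested probe sets. Both were lower, against 4.55% of all. These were Tbc1d10a, at -0.24, and Kcnq3, a subunit of the M-current channel, at -0.54 (SE 0.21, limma adjusted p = 0.429). Tbc1d10a had a mean of 4.16 in control rats and 3.92 in learning rats. It therefore passed the level filter of 4 through the group where it was higher. Ap2a2 at -0.07 and Ric8a at 0.11 came next. Pi4kb, the lipid kinase bound by Ncs1, differed by 0.02, Nmt1, an N-myristoyltransferase, by 0.04, Ap2b1, the AP2 adaptor subunit bound by hippocalcin, by 0.05 and Kcnd2, a Kv4 channel, by 0.03.

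Genes whose pattern over the 12 arrays was most like each member, with group means removed and over 6866 other tested genes, are named as a description. For Hpca they were Dohh and Cald1 (r = 0.89 for both). Hpcal1 was followed by Gba2 (r = 0.93) and Eif4a2 (r = 0.87), and Hpcal4 by Lsamp (r = 0.96) and Lingo1 (r = 0.94). Plpp3 (r = 0.95) and Nefh (r = 0.91) were nearest to Ncald, Cdh13 (r = 0.96) and Vgf (r = 0.86) to Vsnl1, and Tmem205 (r = 0.86) and Nptxr (r = 0.84) to Ncs1. With so many genes and 12 arrays, high values of r arise among unrelated genes too.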

How the data were processed

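CA1 RNA of 12 rats was hybridised to 12 RAE230A arrays, 6 per group, and the titles of the samples, which name them biological replicates, gave group and number. The deposited values are log2 probe set summaries made with GCRMA, per the submitters' processing notes, of unstated version and settings. The log2 scale of the authors' values was inferred from the range, 0.134 to 14.8. GCRMA equalises the arrays' distributions, and differences of probe sets near the background level are uncertain in size. No scan date or batch was known for any array. The arrays' number, 6 per group, limits the precision.

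Gene names came from the platform annotation. Apart from 57 manufacturer's controls, every probe set whose mean reached 4 (log2) was tested, 9610 in all (6867 named genes), by limma 3.58.1 under R 4.3.3 (a linear model on group alone with trended eBayes, 2-sided, Benjamini-Hochberg over all tested probe sets, threshold 0.05). Single values were compared over all 924 ways to choose 6 of 12 arrays (smallest p 0.00216), with scipy 1.17.1. Simulated data for this comparison (9610 probe sets) returned 86% of 100 probe sets altered by 0.5 and 98% of 100 altered by 1, with 9 false calls. The pooled within-group SD of the members ran from 0.08 (brighter Ncs1 set) to 0.34 (dimmer Hpcal4 set), beside a median of 0.12 over all tested probe sets. The share returned at the SD of each member was not tested, so these percentages are not read as the share for any member.

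The members and lists were chosen with earlier results of these data known. Named genes were all member probe sets, the 4 genes of each related list with the smallest p, and the 2 genes most like each member. All Kcnip genes are named. Calm2, Calb1, Pi4kb, Nmt1, Ap2b1 and Kcnd2 were added for their known roles, after their values were seen. Genes of a list entered by their brightest tested probe set. Alternatives were other filters, scalings, eBayes settings, array weights, an exact test, a replicate block, covariates and leaving arrays out.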

Additional observations from a re-analysis of the deposited data

Results flagged for a closer look

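In 2 of the 20 sets of 6 values (10 probe sets in each group) 1 rat stood apart from the rest, and chance alone marks about 1 in 20 such sets. Hpca reached 11.64 in spatial learning replicate 5, where the next rat of that group stood at 11.46. The brighter Hpcal4 probe set reached 10.68 in control replicate 6, where the next control stood at 10.11. Without control replicate 6 the Hpcal4 difference was -0.01, and without spatial learning replicate 5 the Hpca difference was 0.13.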

How the results depend on the processing

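Of the 10 member probe sets 0 passed under any of the 25 other fits, and the 5 with an unadjusted p under 0.05 (Hpca, Ncald, both Hpcal1 sets and the dimmer Ncs1 set) kept their direction in all fits that tested them. The exact test among those fits could hardly have passed any. The number with an unadjusted p under 0.05 was 5 or 6, except 3 with the CA1 marker mean and 2 with the dentate marker mean as a covariate, both chosen after seeing the data. The sets counted were not always the same. With the hexokinase gap as a covariate the dimmer Ncs1 set had an unadjusted limma p of 0.113 and the dimmer Vsnl1 set 0.0307. The groups barely overlapped in that gap, as given above. Directions turned only in sets with an unadjusted p above 0.05: the hexokinase covariate gave 0.053 and 0.0066 for Hpcal4, -0.017 for the brighter Ncs1 set and -0.033 for the brighter Vsnl1 set. Without the 3 arrays with the highest choroid plexus or meningeal marker means, Hpcal4 was at 0.098 on its brighter set and Vsnl1 at -0.00036, and leaving out 1 array at a time put Vsnl1 between -0.020 and 0.035. The median over the 6 genes was -0.16 with the mean of each gene's probe sets and 0.021 without those 3 arrays, and from -0.093 to -0.0071 when leaving out 1 array: -0.093 without learning replicate 3, -0.016 without control replicate 6 and -0.0071 without learning replicate 6. Over all probe sets 3 were called with array weights, 5 without those 3 arrays, and 0 to 3 when leaving out 1 array at a time, with 3 without control replicate 6. The cause was not tested. The replicate number as a block gave Ncald an adjusted p of 0.575 and 5 member sets with an unadjusted p under 0.05. Same-numbered arrays correlated between -0.17 and 0.082, and 1 of 6 correlated best with its own number. The replicate 6 arrays of the control and learning groups nevertheless had the highest meningeal means (7.95 and 7.70) and the highest vessel means (6.99 and 6.92). Whether same-numbered rats were handled together is not known, and these correlations cannot decide it. The dimmer Hpcal1 set, at the level filter, was not tested with a minimum of 6.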
